A study of Danio rerio with 4 samples.

Results

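Thrombocyte-lineage cells are the fish counterpart of megakaryocytes and platelets. In the adult zebrafish kidney, which houses the blood-forming marrow, they were taken here as cells with at least 1 unique molecular identifier (UMI, one counted mRNA molecule) in 2 or more of itga2b, mpl, gp1bb and thbs1b and with 0 UMIs of the endothelial genes kdrl, stab1 and stab2. The cells were thus chosen by measured UMI counts of these 7 genes. The gate held 601 of 31008 cells, with 136, 161, 161 and 143 cells in libraries 1 to 4. The kidneys came from adult AB zebrafish of 1 condition, collected at 4 days after gentamicin, an aminoglycoside that injures kidney tubules, had been injected into the abdomen (each fish received 20 μl of a solution at 2.7 μg/μl). Kidneys of 12 fish were digested with trypsin and captured on the BD Rhapsody system with 3′ whole transcriptome amplification. Uninjured kidneys were not analysed here, so the comparisons set these cells against other cells of the same libraries and say nothing of the injury. The labels do not say which fish went into which library, so p-values measure the spread between 4 libraries, which may be technical.

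Nucleated thrombocytes do in fish what anucleate platelets do in mammals: they stick to damaged vessel walls through glycoprotein receptors, activate the fibrinogen receptor, aggregate and release granules. Thrombopoietin acting through the receptor encoded by mpl drives the lineage, and a set of transcription factors shared with red cells (Gata1, Tal1, Gfi1b, Nfe2) or with vessels and stem cells (Fli1, Meis1, Runx1) sets its program. Itga2b, also called CD41, pairs with Itgb3 as the fibrinogen receptor, Gp1ba, Gp1bb and Gp9 form the von Willebrand factor receptor, and Thbs1 is a granule protein that stabilises aggregates.

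The 4 genes of the gate chose the cells, so their levels are a description and carry no test. Values are CPM, the UMIs of a gene per 1000000 UMIs of all cells of that class summed within a library. itga2b stood at 781, 732, 479 and 535 CPM in the thrombocyte-lineage cells of libraries 1 to 4, and mpl at 410, 385, 553 and 607 CPM. gp1bb stood at 729, 694, 340 and 420 CPM, and thbs1b at 500, 329, 196 and 339 CPM. A UMI was found for itga2b in 84.2% of the cells, for mpl in 82.9%, for gp1bb in 90.7% and for thbs1b in 50.2%. All 4 genes were found together in 202 cells, 3 of them in 245 cells and just 2 in 154 cells. Just outside the gate, 5138 cells had a UMI in exactly 1 of the 4 genes, of which 3900 had gp1bb alone, 689 mpl alone, 440 thbs1b alone and 109 itga2b alone. A further 17 cells had 2 or more of the genes but also a UMI of kdrl, stab1 or stab2.

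The gate took 1.5% (95% Clopper-Pearson interval 1.26 to 1.78), 1.64% (1.4 to 1.91), 2.55% (2.18 to 2.97) and 2.46% (2.07 to 2.89) of the cells of libraries 1 to 4, a mean of 2.04 ± 0.543% (SD, n = 4). The intervals cover counting error only. Libraries 3 and 4 had more UMIs per cell: their gated cells had median totals of 10430 and 10273 UMIs, against 2370.5 and 2621 UMIs in libraries 1 and 2, and their other cells 9952 and 9866 UMIs, against 4677 and 4379.5 UMIs. The lowest totals of a gated cell were 356 and 478 UMIs in libraries 1 and 2, and 3493 and 3303 UMIs in libraries 3 and 4. All 6308 and 5821 cells of libraries 3 and 4 had at least 2000 UMIs, against 6461 of 9048 and 7009 of 9831 cells of libraries 1 and 2. Among cells of at least 2000 UMIs, each thinned to that number, the gate took 0.88%, 0.87%, 1.63% and 1.56% of cells of libraries 1 to 4. The cells left out were all in libraries 1 and 2, and 125 of them were gated cells. The thinned shares of libraries 1 and 2 thus lack their shallow gated cells, and the part of depth in the difference between libraries was not tested. The pairs also differed in their gene lists, since the mitochondrial protein-coding genes were listed in libraries 3 and 4 only. Libraries 1 and 2 shared 108 barcodes and libraries 3 and 4 shared 46, and no barcode belonged to a gated cell in both libraries of any pair.

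The label was checked against 12 thrombocyte genes that the gate did not use. Thrombocyte-lineage cells had UMIs in a median of 6 of the 12, against a median of 2 in cells with exactly 1 of the 4 gate genes, 3 in those with gp1bb alone and 1 in cells with none of them. Of the gated cells, 9 had none of the 12 genes. The median was 4 in the 95 gated cells without itga2b and 2.5 in the 32 that passed only through thbs1b. These medians lie near that of cells with gp1bb alone. The 12 genes are not confined to thrombocytes: fermt3b had a UMI in 38.1% and fli1a in 33.0% of cells with none of the gate genes. gp9, tubb1, gata1a and gfi1b were also found in erythroid-gate cells, described below. gp1ba, gp9, itgb3b, itgb3a, fermt3b, tubb1, nfe2, gfi1b, fli1a and gata1a passed the test against other cells as higher, while f13a1b and f13a1a.1 did not. f13a1a.1, one of 2 copies of the factor XIII A subunit gene checked here, stood at 1.44, 0, 0.800 and 0 CPM in thrombocyte-lineage cells, against 56.1, 89.5, 8.63 and 16.1 CPM in other cells. It was lower in thrombocyte-lineage cells in each library (log2 fold change -6.62, SE 1.2, adjusted p = 0.0056), a call that was lost after thinning each cell to 2000 UMIs (adjusted p = 0.056). f13a1b stood at 270, 270, 112 and 95 CPM in thrombocyte-lineage cells, against 128, 140, 132 and 123 CPM in other cells. Its thrombocyte-lineage levels lay above the other cells in libraries 1 and 2 and below them in libraries 3 and 4, and it did not pass the test (log2 fold change 0.27, SE 0.31, adjusted p = 0.68).

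UMIs were then summed per library within thrombocyte-lineage cells and within all other cells, and the sums were compared over 19880 genes, the 7 genes of the gate left out, by the quasi-likelihood test of edgeR, with p-values adjusted after Benjamini and Hochberg. Of these genes, 969 (4.87%) were higher and 2008 (10.1%) lower in thrombocyte-lineage cells at an adjusted p under 0.05. The median log2 fold change of all genes tested was -0.13. Higher calls made up 32.6% of all calls, and 45.6% without TMM scaling, which shifted the median by 0.18. With the library as a block, 1357 of 22154 genes tested were higher and 3512 lower. Blocked counts of lists against all other cells stand beside these. Leaving out library 2, 3 or 4 in turn lowered the unblocked counts to between 574 and 628 higher and between 1030 and 1095 lower.

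Receptor genes outside the gate followed. gp1ba, the ligand-binding chain of the von Willebrand factor receptor, is listed in the files under its gene number as LOC101885690 and was named through the RefSeq gene table for GRCz12tu. It stood at 170, 183, 69.2 and 73.3 CPM in thrombocyte-lineage cells, against 0.153, 0.222, 0.0586 and 0.104 CPM in other cells. The groups lay far apart in every library, and gp1ba had the highest log2 fold change by the rule for named genes (9.62, SE 0.54, adjusted p = 1.04e-05). A gp1ba UMI was found in 44.9% of thrombocyte-lineage cells (median 6110 UMIs a cell), against 0.0629% of the 11137 cells with UMIs of both neutrophil genes mpx and lyz (median 7386 UMIs), which should lack it. itgb3b, the integrin partner of Itga2b, stood at 86.6, 86.9, 123 and 128 CPM in thrombocyte-lineage cells, against 0.491, 0.582, 1.25 and 1.55 CPM in other cells (log2 fold change 6.61, SE 0.43, adjusted p = 2.08e-05). Its second copy itgb3a stood at 30.3, 32.7, 30.4 and 27.6 CPM, against 9.17, 8.83, 9.24 and 8.89 CPM in other cells (log2 fold change 1.55, SE 0.16, adjusted p = 0.00022). Neither integrin gene overlapped between the groups, but the share of all genes without overlap is not given here.

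**Figure D1:**
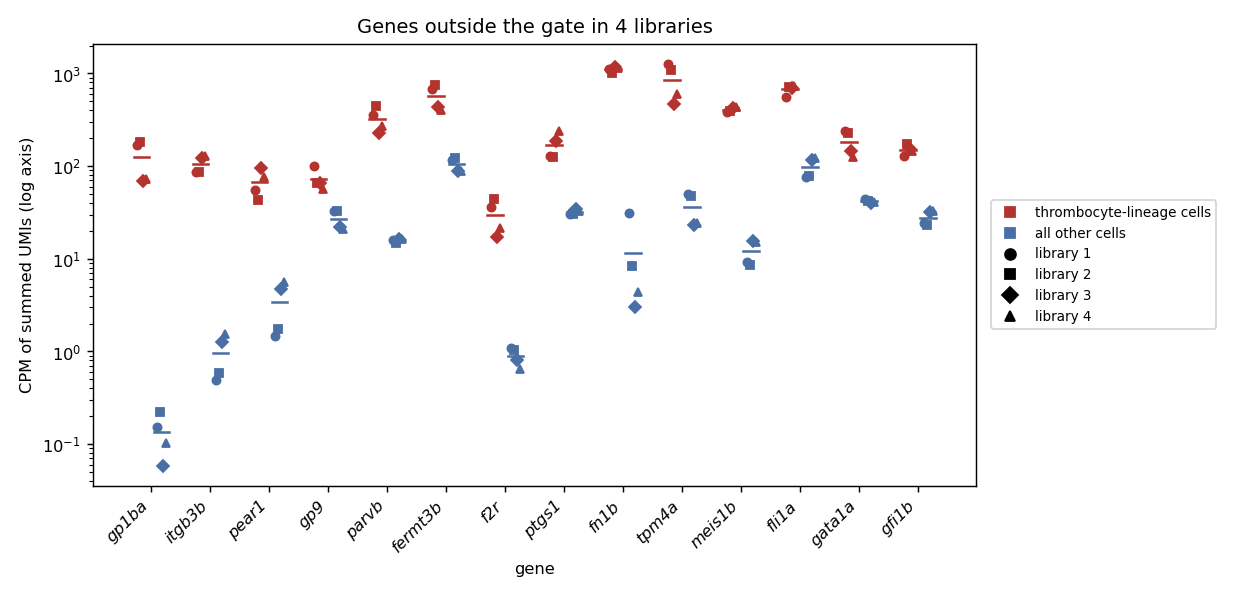
CPM on a log axis of 14 genes that were not part of the gate, in thrombocyte-lineage cells (red, left) and all other cells (blue, right) of each gene, with 1 symbol per library and a bar at the mean. gp1ba is at 69.2 to 183 CPM in the red points and at 0.0586 to 0.222 CPM in the blue points, while gp9 is separated by far less.

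Of the platelet glycoprotein receptor list, 17 of 22 names were found in the files and tested, of which 6 were higher, 4 lower and 7 not called, with a median log2 fold change of 0.21. Of all genes tested 4.87% were higher and 10.1% lower, and these shares stand beside the unblocked counts of each list against all other cells. Beside gp1ba, itgb3b and itgb3a, the higher genes were gp9, itga2.2, a collagen receptor chain, and pear1, a receptor that sustains platelet aggregation in mammals. pear1 stood at 54.9, 42.9, 94.8 and 77.3 CPM in thrombocyte-lineage cells, against 1.47, 1.73, 4.76 and 5.65 CPM in other cells (log2 fold change 4.18, SE 0.51, adjusted p = 0.00055). cd63, a granule membrane protein, and the Fc receptor chain gene fcer1gl were lower (log2 fold changes -1.05 and -2.14). The call of cd63 was lost without TMM scaling (log2 fold change -0.83, adjusted p = 0.057).

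gp9 and gp1bb were also found in erythroid-gate cells, described next. gp9 stood at 101, 66.6, 65.2 and 57.1 CPM in thrombocyte-lineage cells, against 32.7, 32.4, 22 and 20.9 CPM in other cells (log2 fold change 1.2, SE 0.24, adjusted p = 0.0092). To place these UMIs, 4176 erythroid-gate cells were set apart, which lay outside the thrombocyte gate and had UMIs of both alas2, the heme synthesis enzyme of red cells, and slc4a1a, the red cell anion exchanger, and 0 UMIs of kdrl, stab1 and stab2. gp9 had a UMI in 36.8% of thrombocyte-lineage cells and in 57.0% of erythroid-gate cells, against 4.76% of mpx- and lyz-positive cells, with median totals of 6110, 7682.5 and 7386 UMIs. gp1bb had a UMI in 60.7% of erythroid-gate cells and 4.63% of mpx- and lyz-positive cells. Among cells of at least 2000 UMIs, each thinned to that number, the gp9 shares were 18.7% of thrombocyte-lineage cells and 24.2% of erythroid-gate cells. gp1ba had a UMI in 0.0718% of erythroid-gate cells. Of the 3 chains of the receptor, gp1bb and gp9 were thus found in both gates, and gp1ba in 0.0987% of all cells outside the thrombocyte gate. tubb1, the beta-tubulin of the platelet rim, and the factor genes gata1a and gfi1b were likewise found there, with UMIs in 42.6%, 59.1% and 48.3% of erythroid-gate cells.

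**Figure D2:**
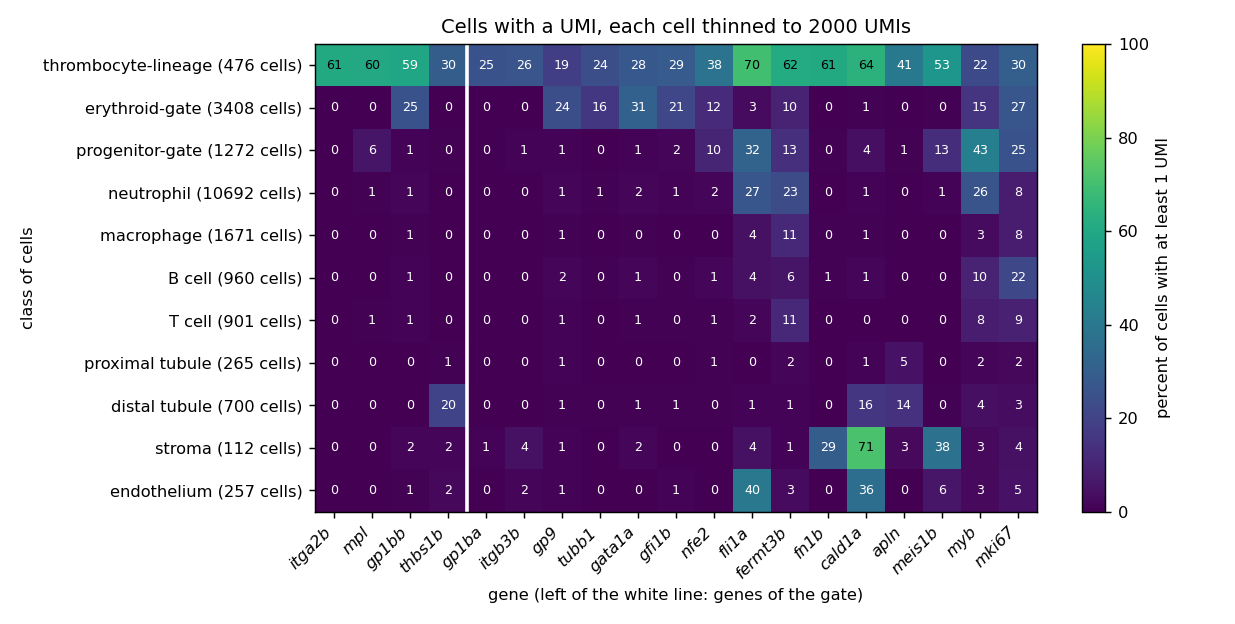
Percent of cells with at least 1 UMI of each gene (columns) after every cell of at least 2000 UMIs was thinned to that number, in thrombocyte-lineage cells (top row), the erythroid and progenitor gates and 8 classes set by a pair of marker genes each. Cells under 2000 UMIs were left out, among them 125 of the 601 thrombocyte-lineage cells. gp1bb and gp9 are found in 25.3% and 24.2% of erythroid-gate cells, thbs1b in 20.3% of distal tubule cells, and gp1ba in 25% of thrombocyte-lineage cells but under 1% of every other class.

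Several genes for proteins that switch the fibrinogen receptor on were higher. Of 13 genes listed for integrin activation, 12 were tested, 5 were higher and 3 lower, beside 4.87% and 10.1% of all genes, with a median log2 fold change of 0.27. fermt3b, the kindlin of blood cells, stood at 679, 751, 435 and 401 CPM in thrombocyte-lineage cells, against 118, 123, 88.9 and 87.7 CPM in other cells (log2 fold change 2.22, SE 0.24, adjusted p = 0.00027). parvb, a parvin that links integrins to actin, stood at 357, 442, 227 and 274 CPM, against 15.8, 14.9, 16.4 and 16.2 CPM in other cells (log2 fold change 4.15, SE 0.20, adjusted p = 4.29e-06). tln1 (talin), rap1b (the small GTPase that recruits talin) and ilk (integrin-linked kinase) rose by log2 fold changes of 1.56, 1.53 and 1.95. The Rap1 exchange factor rasgrp2, the Rap1-binding adaptor apbb1ip and the adaptor pxna were lower (log2 fold changes -1.15, -2.04 and -1.77).

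Of the signalling genes downstream of the receptors, 30 of 35 were tested, 5 were higher and 5 lower, and with the library as a block 8 were higher and 9 lower. btk, a Tec-family kinase, stood at 303, 307, 308 and 321 CPM in thrombocyte-lineage cells, against 65.9, 70.4, 89.7 and 85.4 CPM in other cells (log2 fold change 1.81, SE 0.14, adjusted p = 4.58e-05). plek (pleckstrin) and src rose by log2 fold changes of 1.7 and 2.85. inpp5d and prkcda, a lipid phosphatase and a protein kinase C shared with other leukocytes, were lower. Against erythroid-gate cells, 20 of 26 tested genes of this list were higher and 0 lower (11.2% of all genes were higher in that comparison and 8.79% lower), and btk and plek were higher by log2 fold changes of 4.00 and 3.63.

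Of 21 listed receptor and thromboxane genes 15 were tested, of which 5 were higher and 3 lower (5 lower with the library as a block). f2r, a thrombin receptor, stood at 36.1, 44.0, 17.2 and 21.7 CPM in thrombocyte-lineage cells, against 1.1, 1.03, 0.809 and 0.648 CPM in other cells (log2 fold change 4.8, SE 0.37, adjusted p = 4.70e-05). adra2a, an adrenaline receptor, and ptgs1, the cyclooxygenase that starts thromboxane synthesis, rose by log2 fold changes of 4.56 and 2.24. The thromboxane receptor gene tbxa2r was also higher, at 5.78, 1.13, 8.80 and 9.35 CPM against 0.136, 0.0684, 0.962 and 0.738 CPM (log2 fold change 3.64, SE 0.91, adjusted p = 0.025), but it had a UMI in 4.33% of the cells and its call was lost when library 1, 3 or 4 was left out (adjusted p = 0.083, 0.067 and 0.10). p2ry12, the ADP receptor that marks mammalian platelets, stood at 1.44, 2.26, 1.60 and 0 CPM, against 1.78, 1.66, 2.23 and 1.85 CPM, and did not pass the test (adjusted p = 0.54). The lower genes were alox12, ptgs2b and ptafr.

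Of 15 listed thrombopoietin signalling genes, mpl apart, 13 were tested, 0 were higher and 4 were lower, beside 4.87% of all genes higher and 10.1% lower. The 4 lower genes were stat3, socs3a, socs3b and socs1a, the last 3 being feedback inhibitors of cytokine receptors. With the library as a block 8 were lower, beside 3512 of 22154 genes. jak2a, the kinase bound by the receptor, stood at 140, 95.9, 99.6 and 108 CPM in thrombocyte-lineage cells, against 83.1, 71.8, 69.4 and 63.6 CPM in other cells. jak2a did not pass the test (log2 fold change 0.42, SE 0.16, adjusted p = 0.13), but it passed without TMM scaling (0.62, adjusted p = 0.032). It was lower than in erythroid-gate cells (log2 fold change -1.19, adjusted p = 0.0016).

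fn1b, 1 of 2 fibronectin genes listed, stood at 1125, 1011, 1187 and 1151 CPM in thrombocyte-lineage cells, against 31.1, 8.28, 3.04 and 4.35 CPM in other cells (log2 fold change 6.36, SE 0.82, adjusted p = 0.00082). The other cells of library 1 were the highest of their group, but the groups lay far apart. Its paralogue fn1a was lower (log2 fold change -2.65). Of 24 listed coagulation and plug genes 18 were tested, 4 were higher and 5 lower (11 lower with the library as a block), with a median of -0.93. The other higher genes were tfpia, the tissue factor pathway inhibitor, tgm2b, a transglutaminase, and f5, coagulation factor V, with log2 fold changes of 3.21, 3.59 and 1.23. tgm2b stood at 44.8 CPM in library 1 and at 60.4 to 60.9 CPM in the other 3 libraries. f8, coagulation factor VIII, was lower than in all other cells (log2 fold change -1.66), a call kept in 14 of 16 alternatives. Those other cells include the cells with UMIs of kdrl, stab1 or stab2, which the gate excluded, and their part in this call was not tested. Against the progenitor-gate cells described below, f8 was higher (log2 fold change 5.04, adjusted p = 0.00028). vwf, whose protein is the ligand of the gp1ba receptor, stood at 1.44, 6.77, 6.40 and 9.84 CPM in thrombocyte-lineage cells, against 2.44, 2.14, 2.17 and 1.53 CPM in other cells, and did not pass the test (log2 fold change 1.46, adjusted p = 0.075, or 1.48 and 0.036 with the library as a block).

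Of 34 listed granule and secretion genes 30 were tested, 3 were higher, 9 lower and 18 not called, with a median of -0.83. These counts stand beside 4.87% of all genes higher and 10.1% lower. With the library as a block 16 were lower, beside 3512 of 22154 genes. vegfc, a growth factor for lymphatic vessels, stood at 126, 126, 118 and 114 CPM in thrombocyte-lineage cells, against 0.695, 0.530, 2.03 and 1.53 CPM in other cells (log2 fold change 6.47, SE 0.43, adjusted p = 2.14e-05). rab27b, a small GTPase of dense granules in mammals, and tgfb1b rose by log2 fold changes of 3.17 and 0.85. srgn, the proteoglycan of blood cell granules, was lower at 552, 545, 295 and 337 CPM, against 1531, 1759, 1249 and 1299 CPM in other cells, and so were selp (P-selectin) and vamp8, with log2 fold changes of -1.98, -2.61 and -1.67. srgn is also on the neutrophil marker list, of which all 14 genes were lower, and mpx- and lyz-positive cells made up 36.6% of the other cells. The part of those cells in the lower level of srgn was not tested.

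Of 33 cytoskeleton genes all were tested, 9 were higher and 4 lower (9 with the library as a block). tpm4a, a tropomyosin, stood at 1264, 1100, 465 and 599 CPM in thrombocyte-lineage cells, against 49.5, 47.8, 23.3 and 24.3 CPM in other cells (log2 fold change 4.32, SE 0.43, adjusted p = 0.00017). myl9b (myosin light chain), tubb1, actn1 (an actinin), myh9b (nonmuscle myosin) and flna (filamin A, which tethers the Gp1ba tail in mammals) rose by log2 fold changes of 4.78, 2.65, 1.15, 0.99 and 0.87. rac2, coro1a, wasb and tmsb1 were lower. rac2 and coro1a act on actin in leukocytes. Against erythroid-gate cells 21 of 31 tested genes were higher and 1 lower, beside 11.2% of all genes higher and 8.79% lower in that comparison. Without TMM scaling 3634 of 12962 genes were higher there and 446 lower.

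Of 32 listed transcription factor genes 31 were tested against all other cells, 12 were higher and 7 lower, with a median of 0.47. meis1b stood at 381, 389, 428 and 434 CPM in thrombocyte-lineage cells, against 9.32, 8.48, 15.4 and 15 CPM in other cells (log2 fold change 4.91, SE 0.24, adjusted p = 5.53e-06). fli1a stood at 556, 718, 698 and 742 CPM, against 76.8, 78.5, 116 and 123 CPM (log2 fold change 2.61, SE 0.21, adjusted p = 5.50e-05). pbx1a and pbx1b, partners of Meis proteins, rose by log2 fold changes of 3.98 and 4.39. gata1a stood at 241, 226, 145 and 124 CPM, against 43.8, 42.4, 40.0 and 40.7 CPM (log2 fold change 1.92, SE 0.20, adjusted p = 0.00023). gfi1b, tal1, nfe2 and lmo2 rose by log2 fold changes of 2.26, 2.05, 1.96 and 1.82. zfpm1, the Gata1 cofactor FOG1, rose by 3.36, but its level differed between library pairs, at 57.8 and 89.1 CPM in libraries 1 and 2 and 345 and 291 CPM in libraries 3 and 4, against 4.29 and 3.99 CPM and 31.4 and 32.1 CPM in other cells. Its call was lost when library 2, 3 or 4 was left out (adjusted p = 0.067, 0.089 and 0.087). runx1 stood at 69.2 ± 13.2 CPM in thrombocyte-lineage cells and 44.7 ± 8.63 CPM in other cells (SD, n = 4 each) and did not pass the test by edgeR (adjusted p = 0.17). The second copy fli1b, and erg, another gene of the same family as fli1a, were lower (log2 fold changes -1.71 and -2.07).

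Thrombocyte-lineage cells were set against the erythroid-gate cells over 12962 genes, of which 1453 (11.2%) were higher and 1140 (8.79%) lower. Without TMM scaling the median of all genes shifted by 0.58 and the counts were 3634 higher and 446 lower, so that higher calls were 56.0% of all calls with TMM and 89.1% without. With the library as a block 1922 were higher and 1999 lower. fli1a and meis1b were higher than in erythroid-gate cells by log2 fold changes of 4.71 and 6.64, and pbx1a by 5.23. klf1 and klf17, factors of the red cell program, were lower by -3.57 and -3.45. gata1a, tal1, gfi1b and lmo2 stood at 184 ± 58.1, 210 ± 55.2, 151 ± 19.2 and 227 ± 57.5 CPM in thrombocyte-lineage cells, and at 201 ± 29.2, 176 ± 50.1, 133 ± 6.13 and 147 ± 20.5 CPM in erythroid-gate cells. Of these 4, gata1a was called lower by edgeR (log2 fold change -0.74, SE 0.23, adjusted p = 0.047). The call was kept in 5 of 10 alternatives and ended without TMM scaling (-0.13, adjusted p = 0.71). gfi1b (-0.41, adjusted p = 0.072) was called lower with the library as a block (-0.46, adjusted p = 0.041) and reached 0.18 without TMM scaling, while tal1 (-0.30, or 0.26 without TMM scaling) and lmo2 (0.02) did not pass. lmo2 was called higher without TMM scaling (0.62, adjusted p = 0.043). nfe2 was higher than in erythroid-gate cells, at 200 ± 50 CPM in thrombocyte-lineage cells and 71.0 ± 8.01 CPM in erythroid-gate cells (log2 fold change 0.89, SE 0.17, adjusted p = 0.0051). The fitted fold changes are relative to the TMM scaling, so a gene such as gfi1b can have a higher mean CPM and a negative fold change. gp9 was lower than in erythroid-gate cells (log2 fold change -1.2, adjusted p = 0.0042, or -0.60 and 0.059 without TMM scaling).

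**Figure D3:**
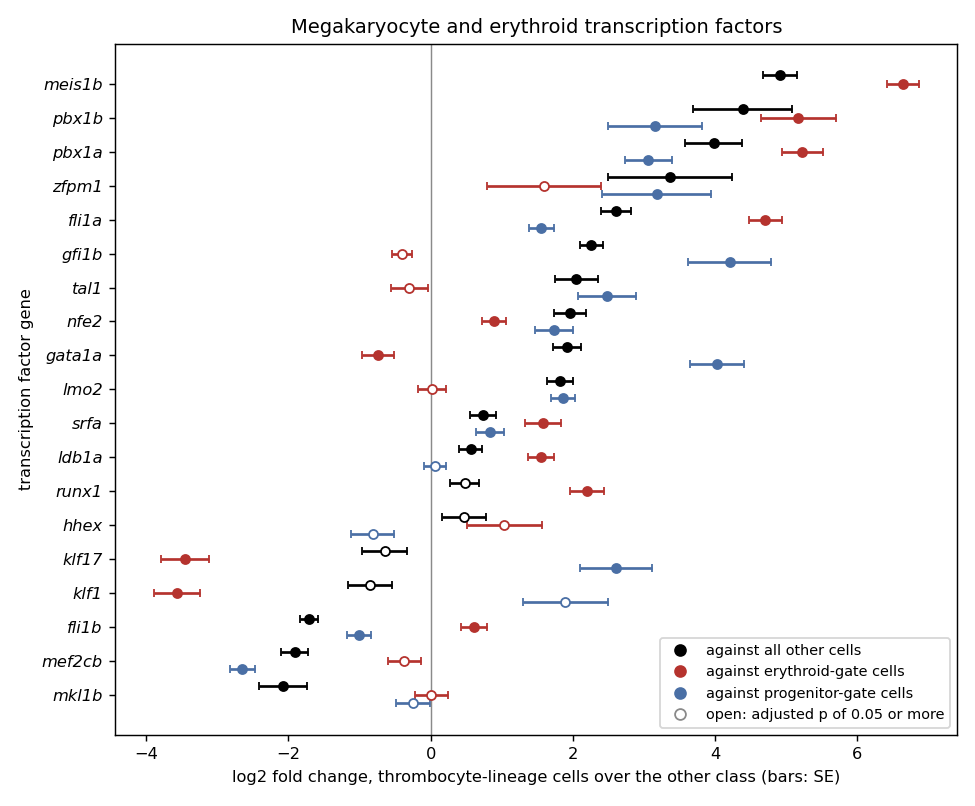
Log2 fold change with its SE for the 19 transcription factor genes of the list that averaged at least 20 CPM in thrombocyte-lineage cells, against all other cells (black), erythroid-gate cells (red) and progenitor-gate cells (blue), with open circles for an adjusted p of 0.05 or more. In the red points gata1a lies at -0.74 and is called lower, while gfi1b, tal1 and lmo2 lie at -0.41, -0.30 and 0.02 and are not called. These genes lie well above 0 in the blue points, from a gate that excluded alas2, and fli1a lies above 0 in all 3.

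The progenitor gate held 1276 cells outside the thrombocyte gate with UMIs in 2 or more of myb, gata2b, meis1b and runx1. This gate required 0 UMIs of kdrl, stab1, stab2, mpx, alas2 and cd79a, and allowed UMIs of at most 1 of the 4 thrombocyte gate genes. Because it excluded mpx and alas2, red cell and neutrophil genes were low in it by construction, and its 4 choosing genes were left out of the test. Over 12289 genes, 1285 (10.5%) were higher and 914 (7.44%) lower in thrombocyte-lineage cells, and 2109 higher and 1971 lower with the library as a block. fli1a stood at 678 ± 83.5 CPM in thrombocyte-lineage cells and 235 ± 51.2 CPM in progenitor-gate cells (log2 fold change 1.55, SE 0.18, adjusted p = 0.00037). gata1a, gfi1b, tal1, lmo2 and nfe2 were higher by log2 fold changes of 4.02, 4.2, 2.48, 1.86 and 1.74, and jak2a by 1.27. Of the erythroid marker list, 12 of 14 tested genes were higher here as well, with a median log2 fold change of 3.34. gata1a, gfi1b, tal1 and nfe2 are shared with red cells, and the part of the alas2 exclusion in their differences was not tested. gp1ba and itgb3b were higher by 10.73 and 4.97. erg, mef2cb and cebpa, the last a factor of the myeloid program, were lower by -1.59, -2.65 and -2.40.

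The rule for named genes picked the 15 highest called genes. Those not yet named were rac3a, LOC101884430, tnni1b, si:dkey-68o6.8, shroom2b, myocd, apln, si:ch211-117l17.6, hif1aa, g6fl and reps2, with log2 fold changes between 6.36 and 8.87. rac3a stood at 339, 276, 137 and 184 CPM in thrombocyte-lineage cells, against 0.373, 0.65, 0.399 and 0.285 CPM in other cells (log2 fold change 8.87, SE 0.42, adjusted p = 4.29e-06). A rac3a UMI was found in 59.4% of the cells. apln, the peptide ligand apelin, stood at 1171, 867, 302 and 260 CPM, against 6.51, 4.6, 5.9 and 4.87 CPM (log2 fold change 6.65, SE 0.54, adjusted p = 6.05e-05). Its level was higher in libraries 1 and 2 than in libraries 3 and 4 of the same class. myocd, which encodes myocardin, a coactivator of serum response factor, stood at 131, 127, 102 and 107 CPM, against 0.542, 0.804, 1.27 and 1.31 CPM (log2 fold change 6.70, SE 0.29, adjusted p = 3.82e-06). Its partner gene srfa rose by 0.74 (adjusted p = 0.022), a call kept in 11 of 16 alternatives.

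In the erythroid comparison the same rule picked LOC108180727, gp1ba, rac3a, apln, tnni1b, itgb3b, bmp16 and shroom2b, with log2 fold changes of 8.08 to 10.06. In the progenitor comparison it picked gp1ba, rac3a, fn1b, nacad, shroom2b, tal2 and si:dkey-68o6.8, with log2 fold changes of 7.45 to 10.73, and LOC108180727, which stood at 111, 68.8, 37.2 and 36.4 CPM in thrombocyte-lineage cells and had no UMI in progenitor-gate cells. bmp16, a bone morphogenetic protein, stood at 108, 71.1, 40.4 and 46.3 CPM in thrombocyte-lineage cells, against 0.117, 0, 0.120 and 0.261 CPM in erythroid-gate cells. The lowest genes against progenitor-gate cells included tnfaip2b, zeb2b and the immune checkpoint receptor gene havcr2, with log2 fold changes of -4.03, -4.04 and -4.17, beside s100w, si:busm1-71b9.3, cx28.1, bhlhe23 and si:dkey-148a17.6.

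The 10 lowest genes against all other cells had no UMI in any of the 601 cells, so only a bound can be given, set at 3 UMIs over the group (0.491 CPM). g6pca.2 and fbp1b, enzymes of glucose production, were at least 65.0-fold and 38.5-fold lower, and slc13a1, slc22a7b.2 and slc12a1, kidney tubule transporters, at least 40.9-fold, 30.4-fold and 19.7-fold lower. plvap, of the endothelial wall, was at least 18.6-fold lower, in a gate that excluded cells with UMIs of kdrl, stab1 or stab2. The others were si:dkey-194e6.1, agxtb, grhprb and foxp3a, at least 104-fold, 38.9-fold, 35.1-fold and 24.5-fold lower. These bounds hold for the gate as set: without its condition on kdrl, stab1 and stab2, which adds 17 cells, the fitted log2 fold change was -4.07 for g6pca.2 and -3.57 for si:dkey-194e6.1. Against erythroid-gate cells the lowest genes were rprmb, aqp12, LOC101884329 and LOC100538248, all at 0 in thrombocyte-lineage cells and at least 4.33-fold to 7.99-fold lower, and hbbe2, hsp70.3, ucp1 and si:ch211-286o17.1.

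Of 28 cell division genes, 19 were higher than in all other cells, none was lower and the median log2 fold change was 0.87, against -0.13 over all genes. mki67, a marker of cycling cells, stood at 843, 915, 683 and 677 CPM in thrombocyte-lineage cells, against 209, 213, 302 and 332 CPM in other cells (log2 fold change 1.37, SE 0.18, adjusted p = 0.00094). top2a, which untangles replicated DNA, rose by 1.45. The sums were carried by cells with many UMIs: mki67 stood at 955, 1013, 777 and 784 CPM in the gated cells above the median UMI total of their library, and at 47.0, 149, 286 and 302 CPM in those below it, which lay under the other cells in every library. Against erythroid-gate cells none of the 28 genes was higher and 1 was lower (aurkb, log2 fold change -0.62, adjusted p = 0.037, or -0.024 and 0.95 without TMM scaling), and with the library as a block 1 was higher and 4 lower. Against progenitor-gate cells 13 were higher and 1 lower. Of all genes, 10.5% were higher and 7.44% lower in that comparison, and 11.2% and 8.79% in the erythroid comparison. Shares of cells with mki67 were then taken among cells of at least 2000 UMIs, each thinned to that number. This left out 125 of the 601 thrombocyte-lineage cells, all of them shallow. mki67 had a UMI in 30.3% of the 476 kept, 26.8% of erythroid-gate cells and 25% of progenitor-gate cells, against 7.71% of mpx- and lyz-positive cells.

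Of 24 listed blood progenitor genes 19 were tested, 5 were higher and 2 lower (5 lower with the library as a block). Beside meis1b, tal1 and lmo2, the higher genes were adgrg1, a receptor of stem cells, at 50.5, 67.7, 45.2 and 58.6 CPM in thrombocyte-lineage cells, against 6.42, 6.09, 5.57 and 4.61 CPM in other cells, and angpt1, a ligand of the Tie2 receptor. angpt1 stood at 18.8 and 20.3 CPM in libraries 1 and 2 and at 102 and 78.7 CPM in libraries 3 and 4, and its call was lost when library 3 or 4 was left out (adjusted p = 0.085 and 0.073). myb, a gene of immature blood cells, stood at 178, 150, 390 and 321 CPM, against 138, 142, 188 and 192 CPM (log2 fold change 0.51, adjusted p = 0.39). cebpa was lower (log2 fold change -2.70).

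The gated cells differed among themselves by whether itga2b was one of their genes. It was found in 506 cells and missing from 95, and all values that follow are descriptions. gp1ba stood at 220, 222, 113 and 109 CPM in cells with itga2b and at 0, 6.15, 0 and 2.90 CPM in cells without it, against 0.105, 0.459, 0.0434 and 0.141 CPM in cells just outside the gate. fn1b stood at 1397, 1215, 1929 and 1737 CPM with itga2b and at 192, 105, 0 and 5.81 CPM without. itgb3b averaged 151 ± 50.7 CPM with itga2b and 4.85 ± 2.55 CPM without, and rac3a 315 ± 88.5 CPM with and 16.9 ± 16.7 CPM without (SD, n = 4 each). These 4 genes did not overlap between the cells with and without itga2b, but the share of all genes that did so was not counted. The cells without itga2b numbered 16, 16, 33 and 30 in libraries 1 to 4. fli1a and meis1b were also higher with itga2b, at 869 ± 160 and 539 ± 96.1 CPM, than without, at 236 ± 76.6 and 103 ± 36.2 CPM. myb went the other way, at 189 ± 82.5 CPM with and 430 ± 119 CPM without.

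The cells without itga2b carried more UMIs, and UMIs of some other lineages. Their median total was 20809 UMIs, against 5476.5 UMIs in cells with itga2b. Both alas2 and slc4a1a were found in 4.74% of cells with itga2b and in 32.6% of cells without it, and both mpx and lyz in 8.50% and 18.9%. Among all cells outside the gate these shares were 14.1% and 36.6%. The cells were not thinned to equal UMI totals for these shares. hbaa1 CPM was higher without itga2b in libraries 1, 3 and 4, and lyz CPM in libraries 3 and 4 only. Of the 95 cells without itga2b, 65 had mpl and gp1bb only, with a median of 22735 UMIs. A total of 32 cells passed the gate only through thbs1b, and 10 of them had UMIs of both atp1a1a.4 and cldnh, of the distal tubule, where thbs1b had a UMI in 35.8% of cells. Their distal tubule marker list summed to 6330 CPM, against 282 CPM in cells with itga2b. Other lineages went the other way: mpeg1.1 and c1qa, of macrophages, were found together in 3.56% of cells with itga2b and in 0 of the 95 cells without it, and the macrophage list summed to 3003 CPM with itga2b and 922 CPM without. Pooled over libraries, the mucin cell, T and NK cell, B cell and stroma lists stood at 102, 147, 189 and 9.90 CPM with itga2b. Without it they stood at 23.4, 97.0, 158 and 6.09 CPM, while the proximal tubule and endothelium lists summed higher without it. The distal tubule and macrophage sums were pooled in the same way. Cells with itga2b numbered 120, 145, 128 and 113 in libraries 1 to 4, and cells without it 16, 16, 33 and 30. The part of this uneven split in the pooled sums was not tested. The mucin cell sum of the whole gate was 407 CPM in library 2 and 46.2, 12 and 21.7 CPM in libraries 1, 3 and 4. The part of these genes in the results above was not tested. With itga2b required, the comparison with all other cells gave 1085 higher and 2195 lower genes. Of these, 909 and 1679 were shared with those above. That gate kept 506 of the same 601 cells, so sharing was to be had in any case and does not bear on the part of these genes.

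**Figure D4:**
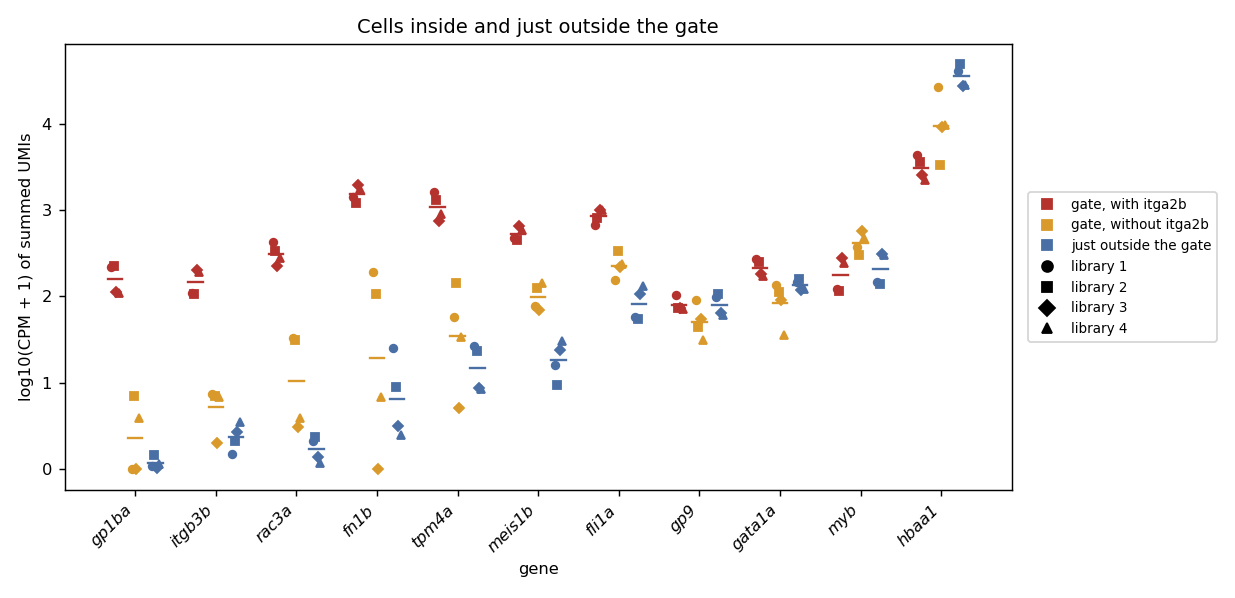
log10(CPM + 1) of 11 genes outside the gate in gated cells with itga2b (red), gated cells without itga2b (yellow) and cells with exactly 1 of the 4 gate genes (blue), with 1 symbol per library and a bar at the mean. gp1ba, itgb3b, rac3a and fn1b are separated between red and yellow in all 4 libraries, gp9 overlaps between them, and hbaa1 is lowest in red on average.

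The 545 gated cells with gp1bb and the 56 without it were compared over 5665 genes. gp1bb is a gate gene, so cells without it had to enter through 2 of the other 3 genes, and their sums held 9, 16, 17 and 14 cells in libraries 1 to 4. No gene was called by edgeR in either direction (0%), with 568 genes at an unadjusted p under 0.05, while DESeq2 called 41 higher and 29 lower and the fit with the library as a block called 39 higher and 55 lower. With sums this small the counts do not show that the cells were alike.

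The gated cells also differed with their total UMI count. When they were split at the median total of their own library, fn1b stood at 4956, 5147, 4488 and 3796 CPM in the 302 shallower cells and at 588, 482, 403 and 397 CPM in the 299 deeper cells. A fn1b UMI was found in 90.1% of the shallower and 58.2% of the deeper cells, although the shallower cells had fewer UMIs in which to find one. gp1ba, apln, tpm4a and itgb3b were likewise higher in the shallower cells, with means of 422, 3414, 2480 and 302 CPM there and 74.5, 249, 566 and 66.1 CPM in the deeper cells. myb and mki67 were lower in the shallower cells, at means of 59.3 and 196 CPM, than in the deeper cells, at means of 304 and 882 CPM. All 4 libraries had the same direction for each of these 7 genes, and also for gata1a and gfi1b. The last 2 differed less, at 291 and 222 CPM in the shallower and 167 and 137 CPM in the deeper cells. The share of all genes with the same direction in all 4 libraries was not counted. A shallow cell enters the gate only if its few UMIs include 2 of the 4 genes, and the part of this in the difference was not tested.

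**Figure D5:**
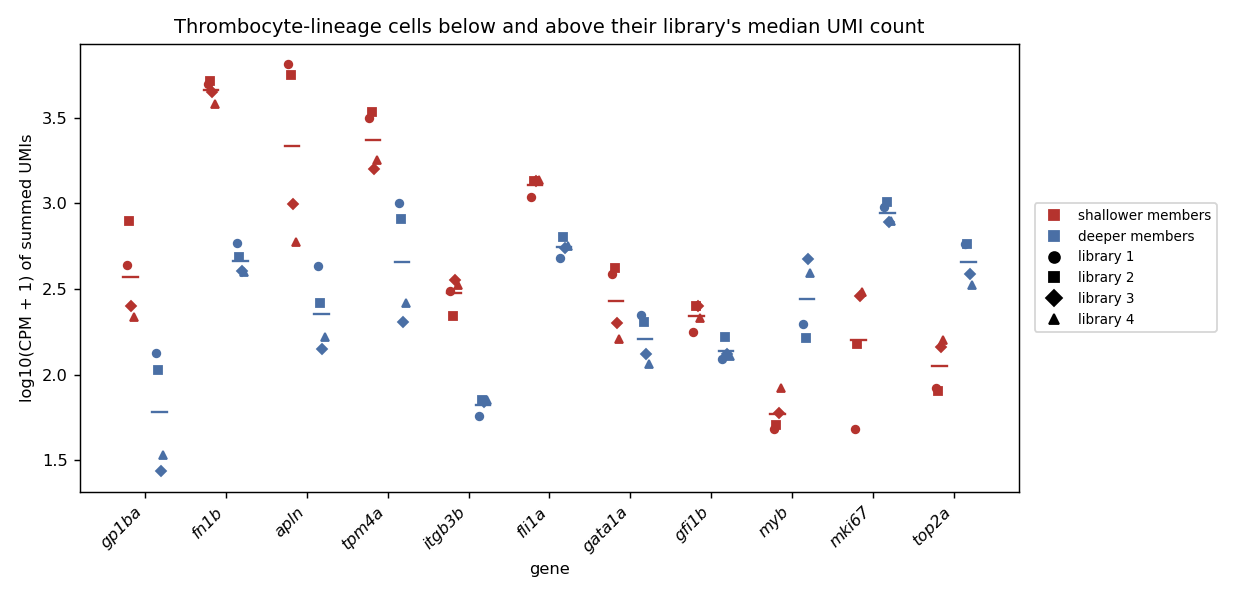
log10(CPM + 1) of 11 genes in thrombocyte-lineage cells below (red, left) and above (blue, right) the median UMI total of their library, with 1 symbol per library and a bar at the mean. fn1b, gp1ba and itgb3b are higher in the shallower cells of every library, and myb, mki67 and top2a are higher in the deeper cells.

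Marker lists of other cell types were summed in the same way. The 15 erythroid genes found summed to 24826, 9527, 16872 and 16474 CPM in thrombocyte-lineage cells, against 28645, 27982, 32182 and 32495 CPM in other cells, with 2 genes higher (rhag and blvrb) and 3 lower (11 lower with the library as a block). The 14 neutrophil genes summed to 4013 to 6147 CPM, against 28086 to 41902 CPM, and all 14 were lower. The 14 macrophage genes summed to 7229, 3624, 1634 and 958 CPM, against 5973, 5736, 4784 and 4417 CPM, so library 1 alone lay above the other cells. The distal tubule list summed to 510, 45.1, 337 and 1239 CPM, against 536, 494, 478 and 425 CPM, with library 4 highest. For endothelium, 5 of 20 genes found had no UMI in the gate, among them plvap, and 8 were lower. The gate excluded cells with UMIs of kdrl, stab1 or stab2, so endothelial genes were lowered in it by construction. The part of these marker lists in the gene results was not tested.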

How the data were processed

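Each library came from the authors as a gene-by-cell matrix of UMI counts, and the submitters' processing notes name UMI-tools, Seurat 4.2 and GRCz11. An aligner is not given in the sources used here. Values deposited are whole-number counts with 28357 gene names over the 4 libraries, 23812 in all 4. A gene not listed in a library was taken as 0.

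Counts were summed per library and class (gates above, at least 3 cells per sum) and tested with edgeR 4.0.16 (glmQLFit and glmQLFTest, TMM, filterByExpr, Benjamini-Hochberg, adjusted p under 0.05) in R 4.3.3, without a library block. The same test gives every adjusted p in the text, except where another setting is named beside the value. Deviations of the 2 sums of a library from their class means correlated at 0.14 to 0.68 in the 4 comparisons, each pair coming from 1 library, so blocked values are given where they change a call. Alternatives were DESeq2 1.42.0, no TMM, no filter, left-out libraries, library pairs, the block, other gates, removal of the 6% highest Scrublet scores (its own threshold called 0 cells in libraries 1 and 4, so no doublets were removed in the main analysis) and thinning to 2000 UMIs. Thinning left out cells under 2000 UMIs. Classes set by 2 markers may share cells.

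Members and gene lists were chosen with earlier results of these data known. Of 405 listed names, 373 matched by symbol and 10 through RefSeq (GRCz12tu). Named genes were up to 6 called members of a list with the highest CPM and lineage-defining members, the 15 highest among called genes higher in 4 of 4 libraries with a UMI in at least 10% of cells and the 10 lowest (8 and 8 in the other comparisons).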

Additional observations from a re-analysis of the deposited data

Results flagged for a closer look

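Of 152 sets of 4 library values checked, 10 had 1 library far from the other 3 in thrombocyte-lineage cells; chance alone gives about 1 in 20 such sets. Library 1 was apart for srfa (72.2 CPM) and tgm2b (44.8 CPM). Library 3 was apart for stat3 (78.4 CPM), inpp5d (74.0 CPM) and mef2aa (1232 CPM). The summed mucin cell markers stood at 407 CPM in library 2 and at 46.2, 12 and 21.7 CPM in libraries 1, 3 and 4. The summed endothelium markers stood at 74.5 CPM in library 2 and at 112 to 118 CPM in the others. Near the lower limit of counting, si:ch211-286o17.1 was found in library 3 alone (0.40 CPM), cx28.1 in library 2 alone (1.13 CPM) and si:busm1-71b9.3 in library 4 alone (0.49 CPM).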

How the results depend on the processing

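Of 175 called gene results checked for genes named in the text, 141 were called under every alternative run for their comparison (15 or 16 against all other cells, 8 or 10 against the erythroid or progenitor gate, where other gates, doublet removal and thinning were not run) and 0 changed sign. Against all other cells, DESeq2 called 1610 genes higher, libraries 3 and 4 alone gave 2185 higher and 3350 lower, and the library as a replicate block gave 1357 higher and 3512 lower, sharing 953 and 1954 with the 969 and 2008 given above. Leaving out 1 library gave 574 to 654 higher and 1030 to 1413 lower. Against erythroid-gate cells, no TMM scaling gave 3634 higher and 446 lower, libraries 3 and 4 alone 2237 and 2119, the block 1922 and 1999, and leaving out 1 library 661 to 743 lower. Against progenitor-gate cells, libraries 3 and 4 alone gave 2002 and 1679, the block 2109 and 1971, and leaving out 1 library 461 to 566 lower. Between gp1bb-positive and gp1bb-negative cells, DESeq2 gave 41 higher and 29 lower, no filter on low counts 208 and 503, libraries 3 and 4 alone 9 higher, the block 39 and 55, and leaving out 1 library 0 to 2 higher. Thinning to 2000 UMIs lowered the mean share of gated cells to 1.24%.

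Results that were not called and changed sign were f13a1b with libraries 3 and 4 alone (-0.36), vwf after thinning (-1.39) and myb with libraries 1 and 2 alone (-0.0087), with 3 or more gate genes (-0.20), after thinning (-0.33) and with itga2b required (-0.012). Against erythroid-gate cells these were gfi1b, tal1 and tubb1 without TMM (0.18, 0.26 and 0.45), tubb1 with libraries 1 and 2 alone (0.19), mki67 with libraries 3 and 4 alone (-0.31) and lmo2 with no filter (-0.12), libraries 3 and 4 alone (-0.058) and the block (-0.035), and between -0.031 and 0.073 without library 1 or 3. The cause was not tested. Median depths of 2370.5 to 10430 UMIs a cell limit what a cell without a UMI can show.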

Other observations

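Of the genes that belong to no list, 5 that were higher in thrombocyte-lineage cells are given here as values, chosen after their values were seen. cald1a, which encodes the actin-binding protein caldesmon, stood at 1207, 1103, 725 and 882 CPM in thrombocyte-lineage cells, against 20.2, 19.4, 14.2 and 14.7 CPM in other cells (log2 fold change 5.62). myh11a, a smooth muscle myosin gene, averaged 1121 ± 192 CPM in thrombocyte-lineage cells and 170 ± 11.4 CPM in other cells (SD, n = 4 each; log2 fold change 2.52). cavin2b, a caveola gene, averaged 474 CPM against 11.8 CPM, and ctgfa, a secreted matrix-cell protein gene, 816 CPM against 17.3 CPM (log2 fold changes 5.1 and 5.34). mef2aa, a muscle and megakaryocyte factor in mammals, averaged 1130 CPM in thrombocyte-lineage cells and 146 CPM in other cells (log2 fold change 2.78). mef2cb, a gene of the same family, went the other way and was lower than in all other cells (log2 fold change -1.91, adjusted p = 0.00017). cald1a was also found in 83.0% of 135 cells with UMIs of both col1a1a and col1a2, against 85.9% of thrombocyte-lineage cells, while all 6 called genes of the 11 tested stroma markers were lower in thrombocyte-lineage cells.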
